A study of Mus musculus with 32 samples.

Results

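Pro-B cells of healthy Pax5+/-;Myd88+/- mice were set against pro-B cells of healthy Pax5+/- mice, to find which transcripts change in Pax5 heterozygous B-cell precursors when 1 allele of Myd88 is also lost. The comparison rests on 4 arrays of Pax5+/-;Myd88+/- and 4 arrays of Pax5+/- cells, 8 of the 32 arrays of the series, chosen by the sample titles alone. Both genotypes carry 1 intact Pax5 allele and were mice on a mixed C57BL/6 and CBA background. The labels give housing free of specified pathogens until 2 months of age. According to the study's methods, Pax5+/- mice were crossed with mice of a separate Myd88 mutant line. Whether the genotypes differ in strain background at other genes was not tested. The same experiment holds 4 arrays each of Pax5+/-;Myd88-/- and WT pro-B cells. The labels describe B220-positive bone marrow cells isolated by magnetic sorting. The study's methods describe pro-B cultures made from such cells of mice aged 2 to 3 weeks, grown with 5 ng/ml IL7 on ST2 stromal feeder cells. RNA was read on Affymetrix MoGene 1.0 ST arrays, and levels below are log2 values after the authors' gene-level RMA summary, so that a difference of 1 is a 2-fold change. All 20874 autosomal probesets that name 1 gene were compared, out of 28944 on the array. They represent 19106 genes.

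Pax5 is the transcription factor that commits lymphoid progenitors to the B lineage: it activates genes such as those of the pre-B-cell receptor and represses genes of other lineages. Loss of 1 allele is compatible with B-cell development and predisposes to B-cell leukemia. Myd88 is the cytoplasmic adaptor through which most Toll-like receptors, and the receptors for interleukin-1 and interleukin-18, recruit IRAK kinases and TRAF6 and activate NF-kB. IL7 is the cytokine on which mouse pro-B cells depend in culture and signals through JAK1, JAK3 and STAT5.

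Myd88 itself read 8.78, 8.51, 8.69 and 8.59 in the 4 Pax5+/-;Myd88+/- arrays, against 9.27, 9.21, 9.27 and 9.35 in the 4 Pax5+/- arrays. The groups did not overlap, and the level in Pax5+/-;Myd88+/- cells was 64.5% of that in Pax5+/- cells on the linear scale (95% interval 55.8 to 74.5%; log2 difference -0.63, SE 0.10, limma adjusted p = 0.000549; 2-sided exact permutation p = 0.0286, the smallest that 4 against 4 arrays can give). In Pax5+/-;Myd88-/- cells it read 7.44, 7.41, 7.04 and 7.38. Whether the probes lie within the deleted part of the gene is not given in the sources used here. Pax5, with 1 intact allele in both genotypes, read 11.15, 11.41, 11.02 and 11.26 in Pax5+/-;Myd88+/- cells and 10.86, 11.29, 10.99 and 11.34 in Pax5+/- cells, and the groups overlapped (difference 0.09, 95% interval -0.14 to 0.32, adjusted p = 0.892).

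The arrays carried pro-B markers at a high level. The mean over 15 of them lay between 11.21 and 11.57 in Pax5+/-;Myd88+/- arrays and between 11.52 and 11.63 in Pax5+/- arrays, while 3 genes of later B cells, Ms4a1 (CD20) among them, averaged 5.47 to 5.58 in Pax5+/-;Myd88+/- arrays and 5.43 to 5.55 in Pax5+/- arrays. RNA of stromal cells was present and split the arrays within each genotype. In such bulk samples fewer cells of a type and less RNA per cell cannot be told apart. Fibronectin (Fn1) read 10.36, 8.58, 10.31 and 8.68 in the Pax5+/-;Myd88+/- arrays numbered 1 to 4, and 10.84, 8.38, 10.92 and 8.41 in the Pax5+/- arrays. Arrays 1 and 3 thus stood above arrays 2 and 4 in both genotypes, and the mean over 30 stromal markers was higher in arrays 1 and 3 also in WT and Pax5+/-;Myd88-/- cells. Between the genotypes Fn1 differed by -0.15 (adjusted p = 0.984). Over all probesets, the SD of the difference between arrays 1 and 3 was 0.176 in Pax5+/-;Myd88+/- and 0.182 in Pax5+/- cells. Between arrays 2 and 4 it was 0.219 in Pax5+/-;Myd88+/- and 0.141 in Pax5+/- cells, and for the other pairings it ranged from 0.183 to 0.283 in Pax5+/-;Myd88+/- and from 0.202 to 0.281 in Pax5+/- cells. The labels call each array a biological replicate. Whether arrays of a pair come from separate cultures or mice is not given, so p-values measure the spread between these arrays, which may in part be technical. Results are therefore also given with the mean of arrays 1 and 3 and that of arrays 2 and 4 as 1 sample each (the pair means). Xist, the RNA of the inactive X chromosome, read 12.40 to 12.52 in the Pax5+/-;Myd88+/- arrays and 5.61 to 5.97 in the Pax5+/- arrays, so that sex and genotype cannot be told apart for any gene. Counts below are of autosomal probesets.

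**Figure D1:**
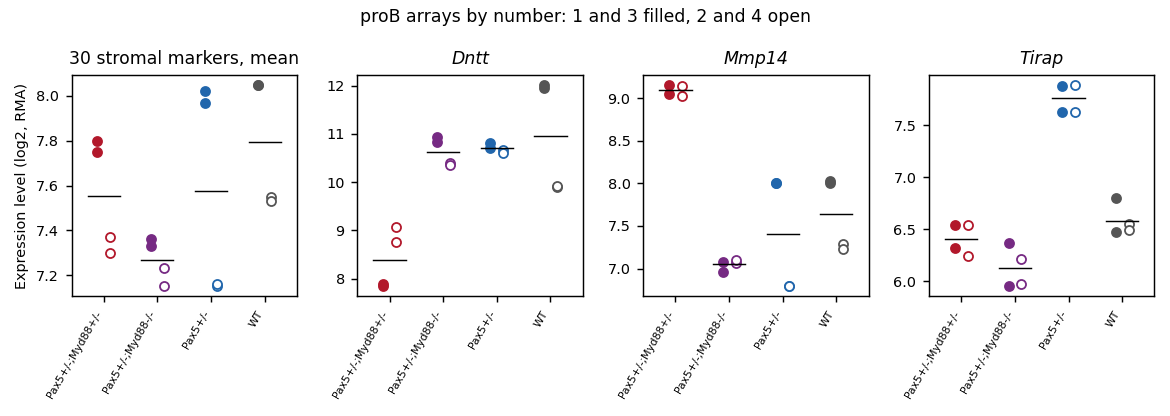
Log2 level in each of the 16 proB arrays, by genotype, for the mean of 30 stromal markers and for Dntt, Mmp14 and Tirap; points are single arrays, filled for arrays 1 and 3 and open for arrays 2 and 4, and the line is the mean of 4. Stromal markers differ between filled and open points in every genotype, Dntt differs between them most in WT cells, and Tirap separates Pax5+/- arrays from the rest.

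Of the 20874 autosomal probesets, 175 (0.838%) differed by an adjusted p under 0.05 and more than 2-fold, which is the rule behind the word called here. In Pax5+/-;Myd88+/- cells 85 (0.407%) were higher and 90 (0.431%) lower. They name 163 genes. At any fold change, 950 (4.55%) had an adjusted p under 0.05, 493 of them higher and 457 lower. Changes of at least 4-fold were seen for 12 probesets that rose and 19 that fell. In 174 of the 175 the values of the 2 genotypes did not overlap, the exception being Cd52. The 175 were chosen for a difference between these same arrays, which makes such separation likely. How many of all autosomal probesets separate in this way is not given. Without overlap a probeset keeps its direction in any subset of the arrays, so subsets cannot test direction. In arrays 1 and 3 alone 151 of the 175 were called, and in arrays 2 and 4 alone 167. With pair means 132 of the 175 were called.

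The 4 largest falls in Pax5+/-;Myd88+/- cells were those of Pgr, Tgfb3, Zfp760 and Zfp979. Pgr, the progesterone receptor, read 6.17, 6.12, 5.89 and 5.89 in Pax5+/-;Myd88+/- arrays and 9.74, 10.10, 9.81 and 10.09 in Pax5+/- arrays, 15.1-fold lower (log2 difference -3.92, SE 0.10, adjusted p = 1.07e-13). Tgfb3, a TGF-beta ligand, read 7.07, 6.56, 6.99 and 6.85 in Pax5+/-;Myd88+/- arrays and 10.50, 10.81, 10.52 and 10.77 in Pax5+/- arrays (difference -3.78, SE 0.17, adjusted p = 2.17e-10). Every Pax5+/- array lay above every Pax5+/-;Myd88+/- array for both genes, by more than 3 log2 units. Adgre5 encodes CD97, an adhesion G protein-coupled receptor of leukocytes. It read 5.86, 5.89, 5.94 and 5.67 in Pax5+/-;Myd88+/- arrays, against 8.73, 9.31, 8.77 and 9.23 in Pax5+/- arrays, a 9-fold difference (adjusted p = 4.59e-11). Ncam2, a neural cell adhesion molecule, read 5.50, 5.20, 5.44 and 5.04 in Pax5+/-;Myd88+/- arrays and 8.49, 8.10, 8.35 and 7.98 in Pax5+/- arrays (difference -2.94, adjusted p = 1.35e-06).

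Ccr2, the receptor for the monocyte chemoattractant CCL2, read 7.47, 7.76, 7.70 and 7.82 in Pax5+/-;Myd88+/- arrays and 10.54, 10.28, 10.48 and 10.35 in Pax5+/- arrays (difference -2.73, SE 0.25, adjusted p = 1.56e-06). Smo, the signal transducer of the Hedgehog pathway, read 7.97, 7.81, 7.68 and 7.64 in Pax5+/-;Myd88+/- arrays and 10.20, 10.11, 10.15 and 10.26 in Pax5+/- arrays (difference -2.40, adjusted p = 9.12e-11). Frmd4b, which encodes a scaffold protein of epithelial junctions, averaged 6.75 ± 0.11 in Pax5+/-;Myd88+/- and 9.38 ± 0.26 in Pax5+/- cells (SD, n = 4 each; adjusted p = 1.82e-10). Nt5dc2 averaged 7.92 ± 0.23 in Pax5+/-;Myd88+/- and 10.56 ± 0.16 in Pax5+/- cells (adjusted p = 1.05e-09). Vash2, of the vasohibin family of tubulin carboxypeptidases, averaged 6.35 ± 0.17 in Pax5+/-;Myd88+/- and 8.59 ± 0.18 in Pax5+/- cells (adjusted p = 4.99e-10). None of these groups overlapped.

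Dntt, the terminal transferase that adds nucleotides at V(D)J junctions, read 7.90, 8.75, 7.84 and 9.07 in Pax5+/-;Myd88+/- arrays and 10.82, 10.67, 10.70 and 10.61 in Pax5+/- arrays (difference -2.31, SE 0.43, adjusted p = 0.00289). It was lower by 2.89 in arrays 1 and 3 and by 1.73 in arrays 2 and 4. In WT cells, with 12.02, 9.90, 11.96 and 9.93, arrays of 1 genotype differed by about as much. With pair means its adjusted p was 0.308. Among zinc finger genes, Zfp760 read 6.88, 6.39, 6.81 and 6.40 in Pax5+/-;Myd88+/- arrays and 10.27, 9.87, 10.49 and 9.95 in Pax5+/- arrays (difference -3.52, adjusted p = 2.66e-09). Zfp979 read 4.41, 4.55, 4.40 and 4.42 in Pax5+/-;Myd88+/- arrays and 8.34, 7.33, 8.17 and 7.34 in Pax5+/- arrays (difference -3.35, adjusted p = 1.15e-08).

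The 2 largest rises were those of Slamf6 and Prrg4. Slamf6, a SLAM-family receptor of lymphocytes and a gene that Pax5 activates, read 9.45, 9.82, 9.63 and 9.95 in Pax5+/-;Myd88+/- arrays and 6.10, 6.18, 6.10 and 6.23 in Pax5+/- arrays. It was 11.8-fold higher (log2 difference 3.56, SE 0.10, adjusted p = 6.74e-13). Prrg4, a transmembrane protein with a Gla domain, read 9.63, 10.04, 9.73 and 10.11 in Pax5+/-;Myd88+/- arrays and 6.22, 6.36, 6.16 and 6.86 in Pax5+/- arrays (11.1-fold, adjusted p = 7.18e-11). The 4 arrays of each genotype lay close together for both genes. Cd44, the hyaluronan receptor, averaged 9.02 ± 0.14 in Pax5+/-;Myd88+/- and 6.22 ± 0.18 in Pax5+/- cells (adjusted p = 1.64e-12). Ceacam2, an adhesion molecule of the carcinoembryonic antigen family, read 9.73, 9.39, 9.61 and 9.51 in Pax5+/-;Myd88+/- arrays and 7.05, 7.24, 7.19 and 7.23 in Pax5+/- arrays (5.21-fold, adjusted p = 4.96e-10). Ly6e, a lipid-anchored surface protein induced by interferons, was abundant in both genotypes, at 12.83, 12.74, 12.94 and 12.92 in Pax5+/-;Myd88+/- arrays and 11.07, 10.87, 10.83 and 10.66 in Pax5+/- arrays (4-fold, adjusted p = 1.76e-11).

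Pla2g4a, the cytosolic phospholipase that releases arachidonic acid, read 9.44, 8.65, 9.53 and 8.99 in Pax5+/-;Myd88+/- arrays and 7.41, 6.82, 7.34 and 6.78 in Pax5+/- arrays (4.18-fold, adjusted p = 1.36e-05). Plcg1, a phospholipase C that acts below antigen receptors, read 9.51, 9.79, 9.63 and 9.78 in Pax5+/-;Myd88+/- arrays and 7.70, 7.91, 7.64 and 7.63 in Pax5+/- arrays (3.88-fold, adjusted p = 5.84e-07). Acsf2, an acyl-CoA synthetase of mitochondria, averaged 9.06 ± 0.08 in Pax5+/-;Myd88+/- and 6.79 ± 0.17 in Pax5+/- cells (adjusted p = 9.12e-11). Gtpbp10, a GTPase, averaged 7.42 ± 0.14 in Pax5+/-;Myd88+/- and 5.37 ± 0.16 in Pax5+/- cells (adjusted p = 2.17e-10). In each of these 4 genes all Pax5+/-;Myd88+/- arrays lay above all Pax5+/- arrays. Klrd1, the CD94 chain of NK-cell receptors, read 7.42, 8.32, 7.59 and 8.72 in Pax5+/-;Myd88+/- arrays and 6.03, 6.23, 5.53 and 6.08 in Pax5+/- arrays (adjusted p = 0.00408). Cyria, a regulator of actin branching through RAC1, averaged 8.41 ± 0.12 in Pax5+/-;Myd88+/- and 6.34 ± 0.22 in Pax5+/- cells (adjusted p = 0.000959). With pair means the adjusted p was 0.32 for Klrd1 and 0.21 for Cyria.

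**Figure D2:**
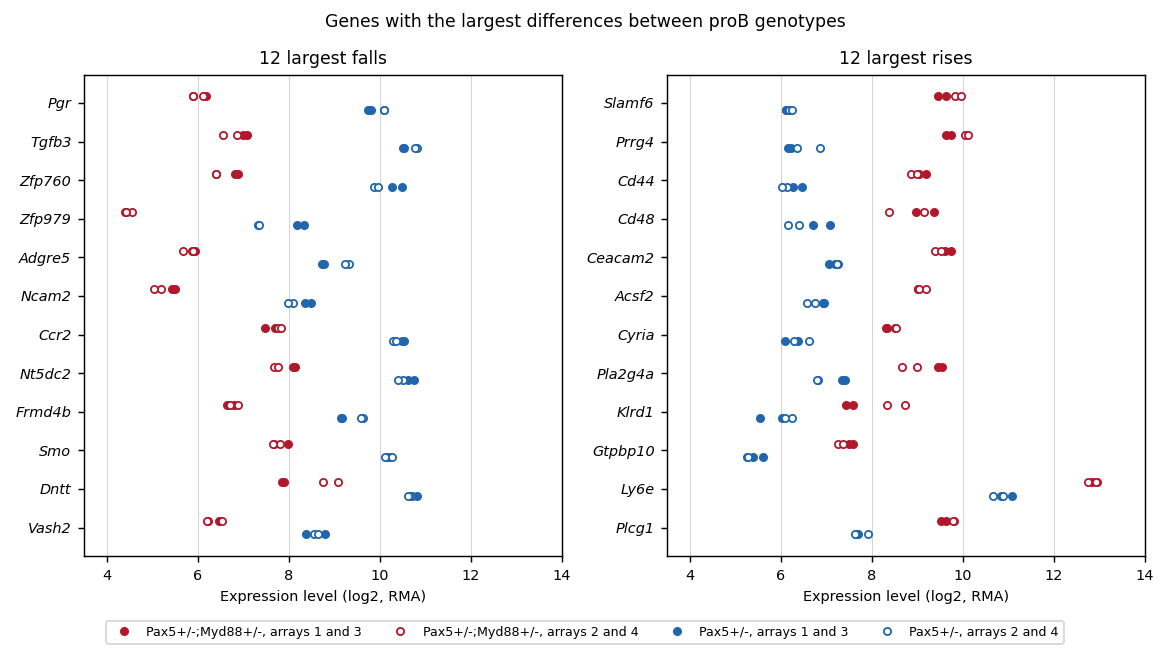
Log2 level of the 12 genes with the largest fall (left) and the 12 with the largest rise (right) in Pax5+/-;Myd88+/- against Pax5+/- proB cells, 1 point an array, red for Pax5+/-;Myd88+/- and blue for Pax5+/-; filled points are arrays 1 and 3, open points arrays 2 and 4. No red point overlaps the blue points of its gene; Dntt and Klrd1 show the widest spread between filled and open red points.

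In the pathway that Myd88 serves, the adaptor Tirap and the receptor Il18r1 were called, both lower, and most other members measured did not pass the test. Genes in the lists below are counted once, by their brightest probeset. Over all autosomal genes 2.32% had an adjusted p under 0.05 and were higher and 2.25% were lower, while 0.393% were called higher and 0.434% called lower, with a median log2 difference of 0.01. Of 18 Toll-receptor adaptors and proximal kinases, 2 rose, 2 fell and 14 did not pass the test. The kinase genes Irak1 and Irak4 were not among these 18. Tirap, the bridging adaptor that carries Myd88 to TLR2 and TLR4 at the membrane, read 6.32, 6.54, 6.54 and 6.24 in Pax5+/-;Myd88+/- arrays and 7.63, 7.89, 7.88 and 7.63 in Pax5+/- arrays (2.54-fold lower, log2 difference -1.35, SE 0.11, adjusted p = 3.59e-07). The groups did not overlap, and the difference was -1.32 in arrays 1 and 3 and -1.37 in arrays 2 and 4. The other fall was Myd88 itself, for which the pair means gave an adjusted p of 0.0781. Irak3, known as IRAK-M and an inhibitor of signaling from Myd88, read 10.27, 10.17, 10.20 and 10.29 in Pax5+/-;Myd88+/- arrays and 9.28, 9.47, 9.19 and 9.44 in Pax5+/- arrays, 1.85-fold higher (adjusted p = 1.63e-07). Ticam1, the TRIF adaptor of TLR3 and TLR4 that signals without Myd88, was higher by 0.36 (adjusted p = 0.00376, and 0.169 with pair means).

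The rest of the adaptor list stayed within narrow limits. Traf6, the ubiquitin ligase below the IRAK kinases, differed by 0.12 (95% interval -0.01 to 0.26), Irak2 by 0.01 (-0.21 to 0.23) and Ticam2, the bridging adaptor of TRIF, by 0.07 (-0.05 to 0.20). Among the kinases, Map3k7 (TAK1) differed by -0.02 (-0.13 to 0.10), Tbk1 by -0.10 (-0.21 to 0.00) and Ikbke by -0.15 (-0.34 to 0.03). The TAK1-binding proteins Tab1 and Tab2 differed by 0.02 (-0.13 to 0.16) and -0.12 (-0.26 to 0.03), the ubiquitin-conjugating enzymes Ube2n and Ube2v1 by -0.01 (-0.37 to 0.35) and 0.03 (-0.21 to 0.27). Peli1, Peli2, Tollip and Sarm1 differed by 0.02 to 0.07, none with an adjusted p under 0.05. All these intervals lie within changes of 1.5-fold in either direction.

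Of 16 Toll-like receptors and co-receptors none was called and 1 passed the test, Rnf135 (-0.27, adjusted p = 0.0259), a ubiquitin ligase of RNA sensing. Tlr4 read 9.01, 8.98, 9.19 and 9.09 in Pax5+/-;Myd88+/- arrays and 8.68, 8.41, 8.67 and 8.54 in Pax5+/- arrays, without overlap but with an adjusted p of 0.286. Tlr9, the endosomal receptor for CpG DNA, read 8.53, 8.61, 8.48 and 8.61 in Pax5+/-;Myd88+/- arrays and 8.31, 8.75, 8.48 and 8.71 in Pax5+/- arrays, with overlapping groups. Il18r1, the ligand-binding chain of the interleukin-18 receptor, fell most in the pathway: it read 7.83, 8.87, 8.04 and 8.92 in Pax5+/-;Myd88+/- arrays and 10.00, 10.59, 10.14 and 10.72 in Pax5+/- arrays (3.86-fold lower, adjusted p = 3.05e-05). Arrays 2 and 4 were higher than arrays 1 and 3 in both genotypes, and the difference was -2.13 in arrays 1 and 3 and -1.76 in arrays 2 and 4. With pair means the adjusted p was 0.0687. The other 7 measured genes of the IL-1 family list, Il18rap, Il1rap, Il1rl2, Il1r2, Sigirr, Il1rn and Il18bp, did not pass the test. Il1rn and Il18bp encode soluble antagonists and not receptors, and Il1r1 and Il1rl1 were not among the measured genes of the list. Of 19 NF-kB subunits and inhibitors 1 rose, Nfkbid, a nuclear IkB protein (0.46, adjusted p = 0.00745), and none was called.

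Among 50 immediate-early and NF-kB induced genes 6 rose and 2 fell, and the called ones went both ways. Ccl3, a chemokine that Pax5 is known to repress, read 10.64, 11.25, 10.97 and 11.58 in Pax5+/-;Myd88+/- arrays and 9.41, 9.54, 9.27 and 9.50 in Pax5+/- arrays (3.2-fold higher, adjusted p = 9.36e-05, and 0.088 with pair means). Atf3, a stress-induced transcription factor, averaged 8.18 in Pax5+/-;Myd88+/- and 7.04 in Pax5+/- cells (adjusted p = 3.44e-08). Nr4a1, an orphan nuclear receptor induced by antigen-receptor signals, read 8.10, 8.12, 8.02 and 8.26 in Pax5+/-;Myd88+/- arrays and 9.45, 9.75, 9.28 and 9.79 in Pax5+/- arrays, 2.72-fold lower (adjusted p = 4.23e-08). Nlrp3, the inflammasome sensor whose transcription NF-kB induces, read 5.93, 5.79, 6.02 and 5.93 in Pax5+/-;Myd88+/- arrays and 7.17, 7.61, 7.33 and 7.48 in Pax5+/- arrays, 2.79-fold lower (adjusted p = 1.6e-07). Smaller rises were those of Ccl5, Cd69, Dusp1 and Dusp2, between 0.35 and 0.65.

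The interferon response list moved in both directions as well, with 9 of 85 genes higher, 3 of them called, and 5 lower, all of them called. Besides Ly6e, Apobec3, a cytidine deaminase that restricts retroviruses, read 11.23, 11.34, 11.35 and 11.63 in Pax5+/-;Myd88+/- arrays and 9.47, 9.70, 9.14 and 9.51 in Pax5+/- arrays (3.82-fold, adjusted p = 4.01e-09). Rsad2 (viperin) averaged 7.46 in Pax5+/-;Myd88+/- and 6.37 in Pax5+/- cells (difference 1.08, adjusted p = 5.05e-06), and Bst2 (tetherin), Lgals3bp, Cmpk2, Parp12, Ifih1 and Ifit1 rose by 0.50 to 0.85. Mlkl, the effector of necroptosis, read 6.26, 6.08, 6.13 and 6.28 in Pax5+/-;Myd88+/- arrays and 8.30, 8.12, 8.27 and 8.06 in Pax5+/- arrays, 4-fold lower (adjusted p = 5.52e-11). Plscr1, Slfn9, Sp100 and Samhd1, a dNTP hydrolase, fell by 1.07 to 1.54. Sp100 was not called with pair means (adjusted p = 0.404), over all 32 arrays (adjusted p = 0.0745) or in arrays 1 and 3 alone (-0.94). In arrays 1 and 3 alone Samhd1 (-0.92) and Rsad2 (0.87) were under 2-fold, and Rsad2 was at 0.99 when Pax5+/-;Myd88+/- replicate 4 was left out and had an adjusted p of 0.656 over all 32 arrays. The median of the list was 0.07. Slfn9, Sp100 and the Ifi200 genes have close copies in the mouse genome, and the probesets may share signal with them.

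Of 48 genes of TGF-beta and BMP signaling 6 fell and 3 rose. Called lower were the ligands Tgfb3 and Tgfb2, the receptor Bmpr1a and the inhibitor Smad7, and 1 gene was called higher. Besides Tgfb3, Tgfb2 averaged 6.63 in Pax5+/-;Myd88+/- and 7.68 in Pax5+/- cells (adjusted p = 8.27e-07), a difference of -1.05 that was under 2-fold, and no longer called, when Pax5+/-;Myd88+/- replicate 4 was left out. Bmpr1a, a type I BMP receptor, read 6.06, 5.71, 6.15 and 5.61 in Pax5+/-;Myd88+/- arrays and 8.36, 7.92, 8.21 and 7.55 in Pax5+/- arrays (4.37-fold lower, adjusted p = 3.59e-07). The inhibitory SMAD gene Smad7 averaged 8.19 ± 0.31 in Pax5+/-;Myd88+/- and 10.13 ± 0.21 in Pax5+/- cells (SD, n = 4 each; adjusted p = 2.05e-08). Id2, a target of BMP signals, fell by 0.60 (adjusted p = 0.0127), while Tgfbr3, a co-receptor, rose by 0.59 (adjusted p = 0.00186) and Rgcc, a cell-cycle regulator that TGF-beta induces, by 1.03 (adjusted p = 9.42e-09). The median of the list was 0.00.

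Of 40 genes of IL7 and IL2 receptors, JAK-STAT5 signaling and its feedback, 2 rose and 4 fell. Il27ra, a receptor chain for IL27, averaged 8.46 ± 0.03 in Pax5+/-;Myd88+/- and 7.10 ± 0.09 in Pax5+/- cells (SD, n = 4 each; 2.56-fold higher, adjusted p = 2.66e-10). Il2ra (CD25), which appears at the pre-B stage, read 10.98, 11.34, 10.87 and 11.20 in Pax5+/-;Myd88+/- arrays and 11.58, 11.90, 11.75 and 11.93 in Pax5+/- arrays (difference -0.69, adjusted p = 0.000243). Il7r differed by -0.13 (SE 0.24, adjusted p = 0.953). The STAT5 target Cish read 7.98, 7.52, 8.12 and 7.45 in Pax5+/-;Myd88+/- arrays and 7.54, 7.55, 7.52 and 7.51 in Pax5+/- arrays, with overlap (adjusted p = 0.859). Socs2, another such target, differed by -0.16 (adjusted p = 0.857).

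Genes known as targets of Pax5 changed in both classes. Of 36 Pax5-activated genes 5 rose and 1 fell, and of 28 Pax5-repressed genes 6 rose and 2 fell; 2 and 5 of these were called higher. These lists were written from general knowledge, and the study names some of their members for this comparison. Atp1b1, a subunit of the sodium pump, read 9.99, 10.32, 10.10 and 10.30 in Pax5+/-;Myd88+/- arrays and 8.26, 8.33, 8.25 and 8.27 in Pax5+/- arrays (3.73-fold, adjusted p = 9.4e-07), and read 10.92, 11.66, 10.88 and 11.58 in WT cells. Bst1 (CD157), an ectoenzyme of pro-B and stromal cells, read 8.19, 7.98, 8.44 and 8.15 in Pax5+/-;Myd88+/- arrays and 6.99, 7.27, 7.32 and 7.32 in Pax5+/- arrays (difference 0.97, adjusted p = 0.0227, and 0.499 with pair means). Bcar3, an adaptor of the NSP family, differed by 0.49 (adjusted p = 0.0433, and 0.539 with pair means) and Foxo1, a transcription factor of B-cell development, by 0.30 (adjusted p = 0.0857), with overlapping groups for Foxo1. The adjusted p of Bcar3 was between 0.0525 and 0.137 when replicate 2 or 4 of Pax5+/-;Myd88+/- or any 1 of the 4 Pax5+/- arrays was left out. That of Bst1 was between 0.0506 and 0.0801 when replicate 1, 3 or 4 of Pax5+/-;Myd88+/- or replicate 1 or 2 of Pax5+/- was left out. Capn2, a calpain protease, went the other way, at 6.65, 6.60, 6.83 and 6.58 in Pax5+/-;Myd88+/- arrays and 8.17, 8.13, 8.06 and 8.10 in Pax5+/- arrays (adjusted p = 7.49e-10). Among the repressed genes, Cd44, Plcg1, Ccl3, Ly6d and Cd52 were called higher and Ccr2 lower. Cd52, a small surface glycoprotein of lymphocytes, had overlapping groups (difference 1.21, adjusted p = 0.022). Its adjusted p was 0.371 with pair means, 0.0501 over all 32 arrays, 0.0723 in a fit of the 8 arrays alone and 0.0606 in arrays 1 and 3. It was between 0.0509 and 0.0854 when replicate 1, 3 or 4 of Pax5+/-;Myd88+/- or replicate 2, 3 or 4 of Pax5+/- was left out. Satb1, a chromatin organizer, rose by 0.90 (adjusted p = 0.0106) and Id2 fell.

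B-lineage stage genes were compared in 3 lists. Of 30 pro-B stage and recombination genes, 1 rose and 2 fell: Ly6d, a surface marker of B-cell specification in lymphoid progenitors, rose by 1.38 (adjusted p = 2.12e-05), and Dntt and Vpreb2, a surrogate light chain (-0.48, adjusted p = 0.026), fell. Rag1, of the V(D)J recombinase, read 11.37, 11.85, 11.50 and 11.88 in Pax5+/-;Myd88+/- arrays and 11.30, 11.40, 11.24 and 11.51 in Pax5+/- arrays, with overlap. Igll1 and Ebf1 differed by 0.03 and 0.11 (adjusted p = 0.987 and 0.637). Of 29 pre-B stage genes, Ccnd3, the D cyclin on which pre-B expansion depends, rose by 0.39 (adjusted p = 0.000181) and Il2ra fell. Of 34 genes of mature B cells 5 rose, among them Ighm, the constant region of the mu heavy chain, which read 8.10, 8.40, 8.23 and 8.28 in Pax5+/-;Myd88+/- arrays and 7.23, 7.28, 7.29 and 7.12 in Pax5+/- arrays (2.03-fold, adjusted p = 1.58e-05). Its difference was close to the 2-fold limit and was 0.97 when Pax5+/-;Myd88+/- replicate 2, and 0.99 when Pax5+/- replicate 4, was left out. Ms4a1 (CD20) stayed between 5.00 and 5.06 in Pax5+/-;Myd88+/- and between 5.03 and 5.21 in Pax5+/- arrays.

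On the cell surface, 3 of 11 SLAM-family genes and adaptors rose and none fell. Beside Slamf6, Cd84, a SLAM receptor that binds itself on neighbouring cells, read 8.36, 8.40, 8.45 and 8.62 in Pax5+/-;Myd88+/- arrays and 7.01, 6.86, 6.77 and 6.26 in Pax5+/- arrays (adjusted p = 0.000104, and 0.082 with pair means). Cd48, the ligand of CD2 and CD244, read 8.97, 8.37, 9.37 and 9.15 in Pax5+/-;Myd88+/- arrays and 7.08, 6.39, 6.71 and 6.15 in Pax5+/- arrays (5.21-fold, adjusted p = 1.18e-06). The 8 other measured genes did not pass the test and differed by less than these. Of 51 adhesion and homing receptors 5 rose and 6 fell. Called lower were Adgre5, Ncam2, Ccr2, Nrp1 (-1.60, adjusted p = 7.38e-06) and Plxna2 (-1.24, adjusted p = 5.64e-09), the last 2 being components of semaphorin receptors. Called higher were Cd44, Ceacam2 and Gpr132, a receptor for lysolipids and lactate (1.01, adjusted p = 7.94e-07), which was at 0.93 to 0.97 when Pax5+/-;Myd88+/- replicate 4 or Pax5+/- replicate 1 or 3 was left out.

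Phospholipase, protein kinase C and prostaglandin genes held 4 called higher and 1 called lower among 40. Beside Pla2g4a and Plcg1, Lpcat2, an acyltransferase that also makes platelet-activating factor, read 7.91, 8.12, 7.82 and 8.36 in Pax5+/-;Myd88+/- arrays and 6.45, 6.55, 6.30 and 6.20 in Pax5+/- arrays (3.2-fold, adjusted p = 4.84e-08). Prkcb, the protein kinase C of B-cell receptor signaling, averaged 11.31 in Pax5+/-;Myd88+/- and 10.15 in Pax5+/- cells (adjusted p = 8.13e-07). Ptger4, the EP4 receptor for prostaglandin E2, averaged 8.34 in Pax5+/-;Myd88+/- and 9.80 in Pax5+/- cells (adjusted p = 2.43e-08). In all, 7 genes of this list rose and 3 fell.

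Of 58 cyclins, CDK inhibitors and S-phase genes 5 rose and none fell: Psrc1, a spindle microtubule protein, read 8.94, 9.10, 8.79 and 9.01 in Pax5+/-;Myd88+/- arrays and 7.44, 7.71, 7.70 and 7.57 in Pax5+/- arrays (2.56-fold, adjusted p = 8.25e-09). Ccnd1, cyclin D1, rose by 1.07 (adjusted p = 4.73e-05), a change close to the 2-fold limit that was 0.99 when Pax5+/-;Myd88+/- replicate 3, and 1.00 when Pax5+/- replicate 4, was left out, and its adjusted p with pair means was 0.0661. Of 41 genes of Myc and ribosome assembly none passed the test, and all differed by -0.19 to 0.22. Among 35 genes of the Bcl2 family and cell death 4 rose and 2 fell. The rises were in Bcl2l11 (BIM, 0.84, adjusted p = 0.00761) and Pmaip1 (NOXA, 0.67, adjusted p = 0.00014), which promote apoptosis, in Bcl2l1 (BCL-XL, 0.47, adjusted p = 0.0132), which opposes it, and in Mdm2, the ligase of p53 (0.27, adjusted p = 0.0204). Casp1, the caspase of inflammasomes, fell by 0.94 (adjusted p = 0.00247), beside Mlkl. Of 40 Notch pathway genes Hes1, a Notch target, rose by 0.70 (adjusted p = 5.53e-05), Aph1b and Ccnd1 rose and Maml3 fell.

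**Figure D3:**
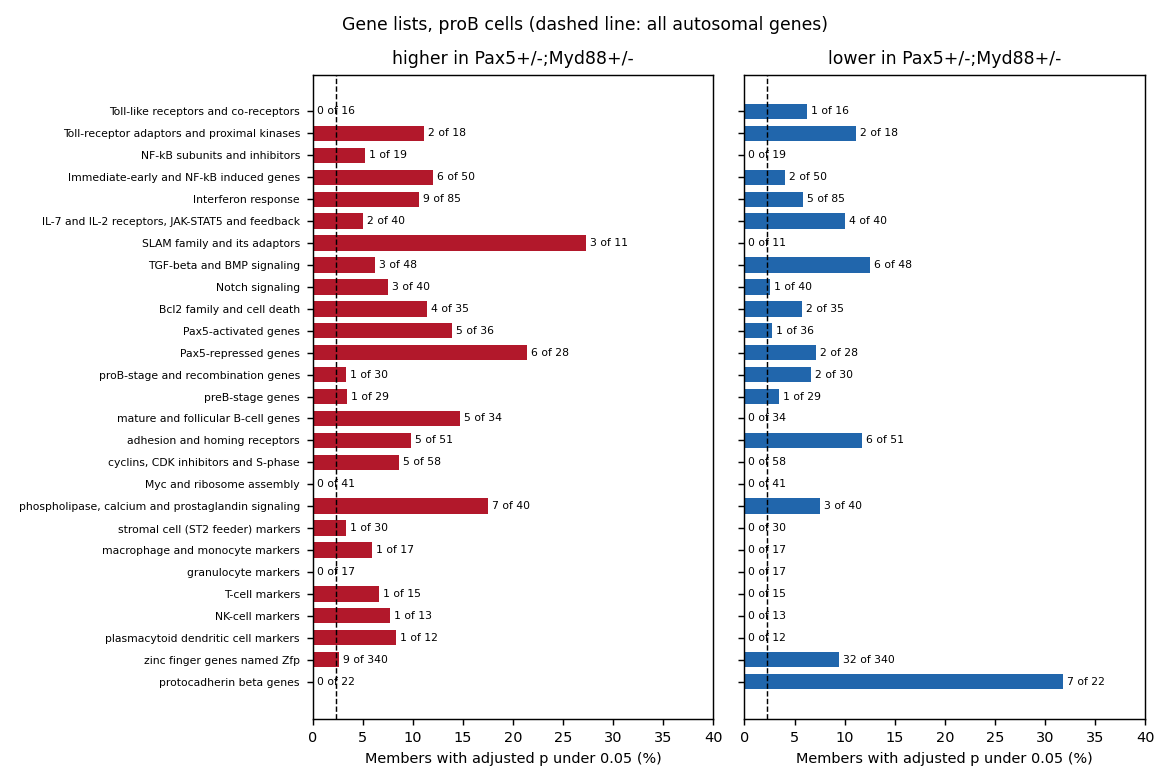
Share of the measured autosomal members of each gene list with an adjusted p under 0.05 that were higher (left) or lower (right) in Pax5+/-;Myd88+/- than in Pax5+/- proB cells, for lists of at least 10 genes, with counts beside the bars; the dashed lines mark all autosomal genes, 2.32% higher and 2.25% lower. The SLAM family has 3 of 11 members higher and the protocadherin beta genes 7 of 22 lower.

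Markers of other cell types were compared between the genotypes as well. The mean of 17 granulocyte markers was 5.86 to 5.99 in Pax5+/-;Myd88+/- and 5.85 to 5.92 in Pax5+/- arrays, and that of 17 macrophage markers 6.85 to 6.96 in Pax5+/-;Myd88+/- and 6.83 to 6.90 in Pax5+/- arrays; of both lists 1 gene passed the test, Fcgr3 (0.53, adjusted p = 0.0242). The 13 NK-cell markers averaged 5.70 to 5.91 in Pax5+/-;Myd88+/- and 5.61 to 5.72 in Pax5+/- arrays, with Klrd1 as the member that passed; arrays 2 to 4 of Pax5+/-;Myd88+/- lay above all Pax5+/- arrays. The 15 T-cell markers averaged 6.55 to 6.77 in Pax5+/-;Myd88+/- and 6.48 to 6.59 in Pax5+/- arrays, with Cd5 higher by 0.64 (adjusted p = 3.99e-05) and Cd3e between 6.91 and 7.04 in Pax5+/-;Myd88+/- arrays and 6.85 and 7.11 in Pax5+/- arrays. The 12 markers of plasmacytoid dendritic cells averaged 7.24, 7.52, 7.30 and 7.52 in Pax5+/-;Myd88+/- arrays and 7.14, 7.28, 7.16 and 7.28 in Pax5+/- arrays, and so were higher in Pax5+/-;Myd88+/- both in arrays 1 and 3 and in arrays 2 and 4. Of these 12 markers 7 differed by more than 0 and 5 by less. Bst2 alone passed, and the highest difference in the list, 1.25, was in a member that did not pass. Siglech, another of these markers, lay between 6.05 and 6.32 in Pax5+/-;Myd88+/- arrays and 6.13 and 6.43 in Pax5+/- arrays. Lyz2, the lysozyme of macrophages, read 8.09, 7.80, 8.24 and 8.23 in Pax5+/-;Myd88+/- arrays and 7.63, 7.17, 7.49 and 7.16 in Pax5+/- arrays, without overlap (difference 0.73, adjusted p = 0.397). The part of such markers in other results was not tested. No erythroid or platelet marker passed. The 30 stromal markers averaged 7.30 to 7.80 in Pax5+/-;Myd88+/- and 7.15 to 8.02 in Pax5+/- arrays, and 1 passed, Mmp14, a membrane-anchored metalloproteinase. It averaged 9.09 ± 0.06 in Pax5+/-;Myd88+/- and 7.40 ± 0.70 in Pax5+/- cells (SD, n = 4 each; adjusted p = 0.000457, and 0.171 with pair means). In Pax5+/- arrays Mmp14 followed the split of Fn1, and in Pax5+/-;Myd88+/- arrays it did not. The difference was 1.10 in arrays 1 and 3 and 2.29 in arrays 2 and 4.

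Among classes of genes defined by symbol, 32 of 340 zinc finger genes named Zfp fell and 9 rose, and 8 were called lower and none higher (median -0.05). Beside Zfp760 and Zfp979, Zfp507 read 6.56, 6.56, 6.29 and 6.06 in Pax5+/-;Myd88+/- arrays and 8.35, 8.71, 8.48 and 8.50 in Pax5+/- arrays (4.42-fold lower, adjusted p = 2.15e-10). Of 22 protocadherin beta genes, which encode cadherin-like adhesion proteins of neurons, 7 fell and 6 were called. Pcdhb18 read 6.58, 6.95, 6.69 and 6.94 in Pax5+/-;Myd88+/- arrays and 8.10, 8.37, 8.19 and 8.23 in Pax5+/- arrays (2.7-fold lower, adjusted p = 0.000155, and 0.111 with pair means). Both classes hold genes of near-identical sequence whose probesets can share signal, so that the number of members that changed is uncertain.

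The position of called genes is given as a description, with no test. Of 158 called genes 28 (17.7%) had another called gene among the 5 measured genes on either side, against 1378 of 18948 other genes (7.27%). The 28 formed 11 groups, in 9 of which all members moved one way. On chromosome 1, Cd48, Cd84 and Slamf6 rose together between positions 171681245 and 171948958 (mm10), as did Ifi207 and Ifi202b. Further groups were Rgs1, Rgs18 and Pla2g4a (chromosome 1, higher), Car13 and Car2 (chromosome 3, higher), Ccl6 and Ccl3 (chromosome 11, higher), Zfp985 and Zfp979 (chromosome 4, lower), Gatm and Slc30a4 (chromosome 2, lower), and Zfp52 and Zfp760 (chromosome 17, lower). On chromosome 18, Pcdhb16 to Pcdhb21 fell by 1.03 to 1.43. With pair means none of these 6 was called (adjusted p between 0.0823 and 0.244), and over all 32 arrays 4 of them were not. By chromosome, the share of measured genes called was highest for chromosome 18 (10 of 471, 2.12%, of which 6 are these Pcdhb genes), chromosome 1 (18 of 1122, 1.6%) and for chromosomes 9 and 14 (1.29% each), and lowest for chromosome 16 (2 of 648, 0.309%). On chromosome 9, which carries Myd88 (119335934 to 119340018), 12 of the 15 called genes were lower, Pgr, Tirap and Ccr2 among them. Within 25 measured genes on either side of Myd88, 1 gene was called, Rbms3, 2.76 Mb before it (1.15 higher, adjusted p = 1.93e-08), and no other of these 50 had an adjusted p under 0.05.

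**Figure D4:**
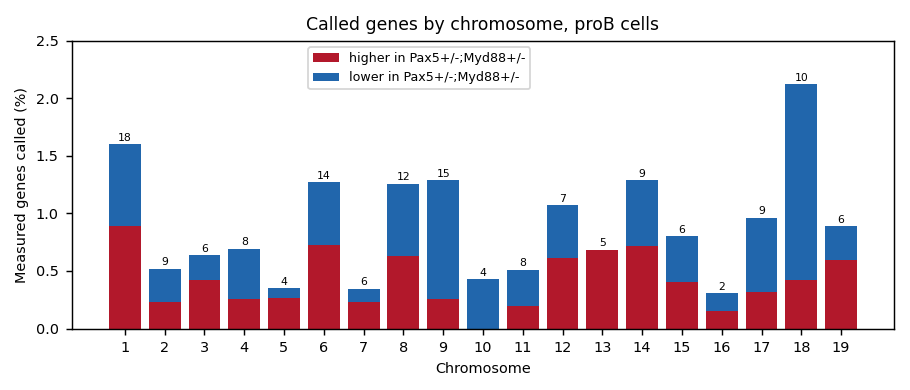
Percent of measured genes on each autosome that were called in Pax5+/-;Myd88+/- against Pax5+/- proB cells, red for higher and blue for lower, with the number of called genes above each bar. Chromosome 18 has 2.12% and chromosome 16 has 0.309%; on chromosome 9 most called genes were lower.

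Promoter sequences were searched for letters of factors that act in these pathways, over windows of 300 bases, 250 before the transcription start and 50 after it, from RefSeq on GRCm38.p6. Windows were matched for 63 of 79 genes called higher, 66 of 84 called lower and 14959 of 19106 autosomal genes. The letters of the interferon-stimulated response element (GAAA, any 2 bases, GAAA) occurred on either strand in 6 of 78 windows of genes called higher (7.69%), in 1 of 87 windows of genes called lower (1.15%) and in 604 of 18383 windows in all (3.29%). A STAT motif, TTCNNNGAA, was in 3.85% of windows of genes called higher, 11.5% of those called lower and 7.69% of all. A kB motif (GGG, any 2 bases, TT, any base, CC) was in 3.85% of windows called higher, 3.45% called lower and 5.09% of all. AP-1 letters, TGANTCA, were in 6.41% called higher, 4.6% called lower and 6.88% of all. EBF1 letters (TCCC, any 2 bases, GGGA) were in 2.56% called higher, 0% called lower and 1.02% of all, and the SMAD palindrome GTCTAGAC in 0% called higher, 2.3% called lower and 0.256% of all. Some genes have several windows that overlap. Each motif was counted by itself, and matches of different motifs could overlap. A match is a run of letters and not a measured site.

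Shown are 1 window each of 5 called genes of the interferon, interleukin-18, inflammasome and hormone pathways in which such letters occurred, 5′ to 3′ on the strand of the gene, with the matched letters in capitals. Apobec3 and Rsad2 rose and hold the interferon element 140 and 120 bases before the start. Rsad2 holds in addition AP-1 letters 87 bases before it. Il18r1 fell and holds STAT letters 219 and 152 bases before the start of this window, Nlrp3 fell and holds kB letters 186 bases before it, and Pgr fell and holds the SMAD palindrome from base 3 after it.
Apobec3: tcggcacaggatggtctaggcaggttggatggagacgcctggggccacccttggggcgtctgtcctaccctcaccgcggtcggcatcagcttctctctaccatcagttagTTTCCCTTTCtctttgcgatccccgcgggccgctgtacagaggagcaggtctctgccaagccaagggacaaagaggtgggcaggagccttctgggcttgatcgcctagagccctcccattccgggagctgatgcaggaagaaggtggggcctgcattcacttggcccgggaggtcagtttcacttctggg
Rsad2: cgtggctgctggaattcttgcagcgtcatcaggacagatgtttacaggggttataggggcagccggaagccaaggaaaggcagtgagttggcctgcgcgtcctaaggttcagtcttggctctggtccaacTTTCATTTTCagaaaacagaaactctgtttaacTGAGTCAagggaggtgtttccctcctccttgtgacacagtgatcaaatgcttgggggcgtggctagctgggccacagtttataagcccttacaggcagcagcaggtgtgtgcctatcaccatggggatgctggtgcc
Il18r1: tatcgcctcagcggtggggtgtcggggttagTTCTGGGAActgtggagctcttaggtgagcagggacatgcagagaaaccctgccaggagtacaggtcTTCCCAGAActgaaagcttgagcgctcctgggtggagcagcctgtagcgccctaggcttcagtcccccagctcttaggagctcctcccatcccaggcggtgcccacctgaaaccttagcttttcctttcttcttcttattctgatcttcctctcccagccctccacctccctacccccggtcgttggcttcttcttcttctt
Nlrp3: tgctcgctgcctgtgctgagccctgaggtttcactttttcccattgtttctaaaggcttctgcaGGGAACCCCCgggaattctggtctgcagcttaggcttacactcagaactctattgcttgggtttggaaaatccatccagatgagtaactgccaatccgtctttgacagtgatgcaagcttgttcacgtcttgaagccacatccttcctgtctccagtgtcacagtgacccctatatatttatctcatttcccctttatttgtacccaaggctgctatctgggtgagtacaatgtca
Pgr: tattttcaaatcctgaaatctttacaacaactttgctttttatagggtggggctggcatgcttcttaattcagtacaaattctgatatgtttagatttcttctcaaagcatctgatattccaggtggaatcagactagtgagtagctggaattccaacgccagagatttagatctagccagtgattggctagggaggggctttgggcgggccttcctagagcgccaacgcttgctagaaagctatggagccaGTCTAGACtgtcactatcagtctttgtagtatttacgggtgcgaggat
In the order printed, the windows lie at chr15:79892158-79892457 (plus strand, Apobec3), chr12:26456403-26456702 (minus strand, Rsad2), chr1:40465756-40466055 (plus strand, Il18r1), chr11:59541319-59541618 (plus strand, Nlrp3) and chr9:8899583-8899882 (plus strand, Pgr) of GRCm38.p6.

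Levels of the called genes in the other genotypes of the same experiment vary. Such comparisons share arrays, so levels are given side by side, with no test. Xist read 12.29 to 12.49 in Pax5+/-;Myd88-/- arrays and 5.32 to 6.11 in WT arrays. Both genotypes that lack Myd88 alleles were thus high in Xist. The others were low, so loss of Myd88 alleles and sex cannot be told apart in these levels. Of the 175 called probesets, the mean of WT cells was nearer to Pax5+/-;Myd88+/- for 84 and nearer to Pax5+/- for 91. The mean of Pax5+/-;Myd88-/- cells was nearer to Pax5+/-;Myd88+/- for 111 and nearer to Pax5+/- for 64. For 45 probesets Pax5+/-;Myd88-/- cells were nearer to Pax5+/-;Myd88+/- and WT cells nearer to Pax5+/-. For 71 probesets the 4 Pax5+/-;Myd88+/- arrays lay outside the range of the 12 other proB arrays, and for 87 the 4 Pax5+/- arrays lay outside the range of the 12 others. The 175 were chosen for a difference between Pax5+/-;Myd88+/- and Pax5+/- arrays, which makes such separation more likely. The share over all autosomal probesets is not given here.

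Slamf6, at 6.00, 6.15, 5.96 and 5.98 in Pax5+/-;Myd88-/- cells and 6.27, 6.20, 6.50 and 6.56 in WT cells, was high in Pax5+/-;Myd88+/- arrays alone among the proB arrays. Zfp760 was low in the Pax5+/-;Myd88+/- arrays alone, at 11.22, 10.95, 11.19 and 10.97 in Pax5+/-;Myd88-/- arrays and 10.06, 10.88, 10.14 and 10.86 in WT cells. Pgr was high in Pax5+/-;Myd88-/- cells too, at 8.87, 8.70, 8.98 and 8.71, and low in WT cells, at 6.10, 6.07, 5.90 and 5.98. Adgre5 was high in the Pax5+/- arrays alone, at 5.65, 5.88, 5.72 and 5.72 in Pax5+/-;Myd88-/- arrays and 6.28, 5.92, 6.17 and 5.95 in WT cells. Mlkl and Frmd4b were likewise highest in the Pax5+/- arrays, though the other genotypes did not keep one order. Mlkl read 6.10, 6.40, 6.36 and 6.27 in Pax5+/-;Myd88-/- arrays and 6.26, 6.01, 6.13 and 6.18 in WT cells. Tirap too was highest in Pax5+/- cells, with 5.95, 6.21, 6.37 and 5.97 in Pax5+/-;Myd88-/- arrays and 6.47, 6.55, 6.80 and 6.49 in WT cells. Cd44, by contrast, was lowest in the Pax5+/- arrays, with 9.14, 9.04, 9.07 and 9.12 in Pax5+/-;Myd88-/- arrays and 8.14, 8.09, 8.25 and 8.16 in WT cells. Apobec3 was high in both genotypes that lack Myd88 alleles, at 11.20, 11.16, 11.07 and 11.29 in Pax5+/-;Myd88-/- cells. WT cells, at 9.51, 9.70, 9.44 and 9.70, were near Pax5+/- cells for Apobec3. The same split held for high and low Xist. Il18r1 read 8.63, 8.50, 8.65 and 8.58 in Pax5+/-;Myd88-/- cells, close to the Pax5+/-;Myd88+/- arrays, and 7.28, 6.66, 7.29 and 6.83 in WT cells, below both.

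The leukemias of the series carry the same genotypes in other animals, 6 arrays of Pax5+/-;Myd88+/- and 6 of Pax5+/- leukemias, and 13 of the 175 proB calls were called there. Of all autosomal probesets, 0.57% were called higher and 2.87% lower in Pax5+/-;Myd88+/- than in Pax5+/- leukemias. Of the 175 called in proB cells, 89 (50.9%) had the same sign in the leukemias, against 52.3% of all autosomal probesets. Of these 175, 6 were called in the same direction and 7 in the opposite one. The median difference in the leukemias was -0.10 for the 85 probesets that were higher in proB cells and -0.08 for the 90 that were lower. The difference between the proB and the leukemia contrast, tested as an interaction over all 32 arrays, had an adjusted p under 0.05 for 117 of the 175 (66.9%) and for 21.4% of all autosomal probesets. Members of the first group were chosen for a large proB difference, which makes such an interaction more likely. Xist ranged from 5.39 to 12.80 in Pax5+/-;Myd88+/- leukemias and from 5.44 to 9.72 in Pax5+/- leukemias.

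Gatm, which encodes an enzyme of creatine synthesis, was lower in both cell states. It differed by -1.78 in proB cells (adjusted p = 3.91e-09), and averaged 6.80 ± 0.52 in Pax5+/-;Myd88+/- and 8.58 ± 0.74 in Pax5+/- leukemias (SD, n = 6 each; difference -1.77, SE 0.31, adjusted p = 0.000465). Churc1, a zinc-binding transcriptional regulator, differed by -1.60 in proB cells and averaged 8.34 ± 0.21 in Pax5+/-;Myd88+/- and 9.59 ± 0.34 in Pax5+/- leukemias (adjusted p = 5.92e-06). Probesets of Nt5dc2, Atrnl1, Zdhhc2 and Plscr1 were the other 4 called lower in both. The brighter probeset of Plscr1 was called in proB cells but not in leukemias (-0.81, limma adjusted p = 0.0841). Myd88 was lower in both too, at 8.83 ± 0.43 in Pax5+/-;Myd88+/- and 10.13 ± 0.19 in Pax5+/- leukemias, and the difference was larger there by 0.66 (interaction adjusted p = 0.0212). Dntt went the other way: it averaged 9.89 ± 1.26 in Pax5+/-;Myd88+/- and 7.38 ± 1.85 in Pax5+/- leukemias (difference 2.51, SE 0.75, adjusted p = 0.0173; interaction -4.82, adjusted p = 0.00055). Syne2, a nuclear envelope protein, was by 1 probeset likewise lower in proB cells (-1.73) and higher in leukemias (1.45, adjusted p = 0.000482). The other Syne2 probesets called in proB cells were higher in leukemias by 0.80, 0.67 and 0.44. These were under 2-fold (limma adjusted p = 0.023, 0.02 and 0.128). Mmp13, collagenase 3, was higher in proB cells (1.38) and lower in leukemias (-1.68, adjusted p = 0.00286), and so were Cyp4f18, Tmem176b, Rgs18 and Lpcat2. Slamf6 averaged 10.17 ± 0.86 in Pax5+/-;Myd88+/- and 10.93 ± 0.94 in Pax5+/- leukemias (adjusted p = 0.183), and Tirap 7.79 ± 0.38 in Pax5+/-;Myd88+/- and 8.26 ± 0.43 in Pax5+/- leukemias (adjusted p = 0.08). Pgr, at 5.70 to 6.12 in Pax5+/-;Myd88+/- and 5.63 to 5.89 in Pax5+/- leukemias, was near the level of the low proB arrays in every leukemia.

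**Figure D5:**
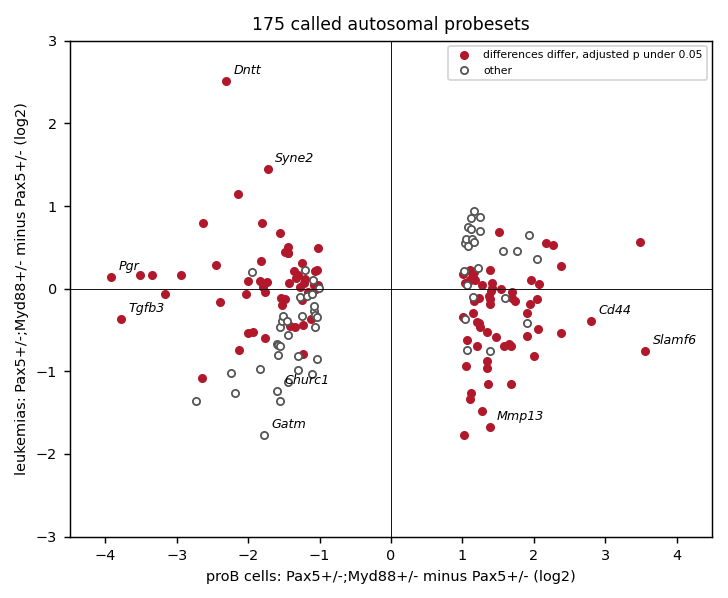
The 175 autosomal probesets called in proB cells: log2 difference between Pax5+/-;Myd88+/- and Pax5+/- proB cells (horizontal) and between leukemias of the same genotypes (vertical); red points are the 117 whose 2 differences differ with an adjusted p under 0.05, open points the other 58. Points lie on both sides of 0 in the leukemias for both proB directions, and Gatm is low and Dntt opposite in the leukemias.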

How the data were processed

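Gene expression was read on Affymetrix MoGene 1.0 ST arrays. The authors processed them with Transcriptome Analysis Console: the deposited unit is log2 from gene-level RMA, rounded to 2 decimals, on mm10. It is not given in the sources used here whether all 32 arrays were normalized together, and the number of arrays limits the precision. Array medians of the 8 arrays lay between 6.91 and 7.01. Groups come from the sample labels. limma 3.58.1 in R 4.3.3 was fitted to the 16 proB arrays of 4 genotypes, with Benjamini-Hochberg adjustment over all 28944 probesets; called means more than 2-fold either way with an adjusted p under 0.05. The study's own filter was a p-value, with no adjustment named, and a fold change of 2. Genes come from the platform's annotation (21789 probesets with 1 gene, 1621 with several, 5534 with none), and positions from RefSeq. Where probesets shared a gene, the brightest stood for it. The leukemia contrast was fitted to the 16 leukemia and sorted WT arrays, and the interaction to all 32.

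Named genes are the 12 largest rises and 12 largest falls of called protein-coding genes without overlap, the 3 largest called members of each list, the adaptor list, Myd88, Pax5, Slamf6, Bst1, Foxo1 and Bcar3; other members are named as examples of their list, chosen after their values were seen. The rule, lists and motifs were chosen with earlier results of these data known. Same-numbered arrays of the genotypes correlated at 0.067, 0.425, 0.218 and 0.047 in their deviations from the group means, so the numbers were not taken as pairs. Other fits, samples, scalings and filters were tried, as the closing section gives.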

Additional observations from a re-analysis of the deposited data

Results flagged for a closer look

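In 3 of 136 groups of 4 arrays a single array stood apart by Dixon's test, where chance gives about 1 in 20. Zfp979 had its highest Pax5+/-;Myd88+/- array at 4.55, with the others at 4.40 to 4.42. Il27ra had its highest Pax5+/-;Myd88+/- array at 8.50, with the others at 8.44 to 8.45. Bst1 had its lowest Pax5+/- array at 6.99, with the others at 7.27 to 7.32.

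For 21 of the 24 genes with the largest proB changes, the difference between Pax5+/-;Myd88+/- and Pax5+/- in proB cells was unlike that in leukemias. These had an adjusted p under 0.05 in the limma interaction over all 32 arrays. The 24 genes were chosen for a large proB difference, which makes such an interaction more likely. The share over all autosomal probesets was 21.4%. The proB difference minus the leukemia difference, in log2 units, was 4.32 for Slamf6, 2.92 for Prrg4, 3.19 for Cd44, 2.92 for Cd48, 2.11 for Ceacam2, 1.74 for Acsf2, 2.01 for Cyria, 2.55 for Pla2g4a, 2.17 for Gtpbp10, 2.81 for Ly6e and 1.85 for Plcg1. Among genes that fell in proB cells it was -4.06 for Pgr, -3.41 for Tgfb3, -3.70 for Zfp760, -3.52 for Zfp979, -3.10 for Adgre5, -3.10 for Ncam2, -1.56 for Nt5dc2, -3.42 for Frmd4b, -2.24 for Smo and -4.82 for Dntt. In all, 117 called autosomal probesets had an adjusted p under 0.05 for this difference, and they were chosen for a large proB difference. A further 45 called probesets name no gene, several genes or no placed gene and entered no count above.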

How the results depend on the processing

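Over all 32 arrays in 1 fit, 116 autosomal probesets were called, all among the 175, with 53 higher, and 270 had an adjusted p under 0.05. With pair means, an alternative chosen after seeing the data like the other ones by array number, 322 had an adjusted p under 0.05, and Myd88 differed by -0.63 with an adjusted p of 0.0781. At an unadjusted p under 0.05 the count was 2541. With the replicate block 176 were called; the numbers do not pair the arrays. Leaving out 1 array of the 8 gave 173 to 182. Other scalings, weights, filters and samples gave 171 to 200, beside 132 with pair means. For named genes, 1372 values kept direction and side of the threshold under an alternative. Of the others, 52 no longer passed it, 3 newly passed it and 0 reversed. Several alternatives leave the log2 difference unchanged, and many named genes were chosen for groups that do not overlap. The absence of reversals therefore does not test direction. In the fit of all 32 arrays the adjusted p was 1 for Bst1, Bcar3, Ly6d and Ighm, 0.848 for Ccnd1, 0.82 for Il18r1, 0.361 for Klrd1, 0.381 for Ticam1, 0.235 for Dntt, 0.224 for Atp1b1, 0.166 for Pcdhb17, 0.16 for Irak3, 0.104 for Nr4a1 and 0.0567 for Ccl3; the cause was not tested. The 4 arrays a group limit precision, and sex and genotype cannot be told apart.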
